A study of Rattus norvegicus with 12 samples.

Results

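The 10 genes described here encode subunits of the transcription factor NF-kB and inhibitors of the pathway, most of which NF-kB itself switches on: the subunit genes Rela, Relb, Nfkb1 and Nfkb2, the IkB genes Nfkbia, Nfkbib and Nfkbie, the nuclear IkB-like genes Nfkbiz and Bcl3, and Tnfaip3, which encodes the ubiquitin editor A20. They were picked by name for their role in the pathway, with no threshold on measured values but with earlier results of these data known, and all 10 were found among the 18469 genes of the expression tables. All 10 also passed the filter on low counts in every comparison. NF-kB works as pairs of Rel family subunits. In resting cells IkB proteins hold these pairs in the cytoplasm, and a kinase complex that responds to cytokines and microbial products marks the IkB proteins for destruction, so that the freed pairs enter the nucleus. Several of the genes they activate encode IkB proteins, A20 and the subunits themselves, which is why the transcripts of these genes are often read as a record of recent NF-kB activity; in the heart the pathway is known for inflammatory and stress responses and for hypertrophic growth.

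RNA was sequenced from neonatal rat ventricular myocytes (NRVMs), heart muscle cells of newborn Sprague-Dawley rats kept in primary culture, in 12 libraries with 3 independent biological replicates in each of 4 groups. Cells of the siNeg group received a negative control siRNA and no further agent. Cells of the siSlc25a26 group received an siRNA named for Slc25a26, the mitochondrial carrier of S-adenosylmethionine, and also no further agent. The groups siNeg.PE and siSlc25a26.PE were transfected in the same way and, 12 h later, given phenylephrine (PE), an alpha-adrenergic agonist that makes cardiomyocytes grow, for 36 h. Every group was thus transfected with an siRNA, and untransfected cells were not analysed here.

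Library totals ranged from 24770972 to 28709049 counts, so that the smallest level taken as detected, 3 counts in a library, equalled at most 0.12 CPM (counts scaled to the same library total); such floors cover counting error only. Slc25a26, the gene the siRNA is named for, stood at 33.2, 31.6 and 29.3 CPM in siNeg and at 15.8, 14.9 and 14.7 CPM in the libraries labelled siSlc25a26 (log2 fold change -1.08, edgeR adjusted p = 1.08e-05). Under PE it stood at 113, 106 and 86.2 CPM in siNeg.PE and at 102, 106 and 98.8 CPM in those labelled siSlc25a26.PE (log2 fold change -0.0062, edgeR adjusted p = 0.969). The transcript therefore checks the siRNA label without PE and does not check it under PE. In each comparison that uses the libraries labelled siSlc25a26.PE, the lowering of Slc25a26 rests on the label alone. In other genes these libraries stood apart from siNeg.PE: 12 genes of the interferon response summed to 5218 to 5791 CPM in them. The same genes summed to 217 to 238 CPM in siNeg.PE and to 8728 to 9433 CPM in siSlc25a26. All 10 cardiomyocyte markers examined, among them Actn2, Tnnt2 and Myh6, were present in every group with a summed level of 20425 to 29018 CPM. In siNeg, siNeg.PE, siSlc25a26 and siSlc25a26.PE, in this order, the 10 fibroblast markers summed to 21651 to 23808, 11803 to 12264, 12560 to 14095 and 8815 to 9590 CPM, and the 10 macrophage and leukocyte markers to 111 to 134, 61.3 to 70.5, 60.7 to 70.7 and 43.0 to 51.3 CPM. Endothelial markers (8) summed to 26.5 to 33.7 CPM over all groups. Smooth muscle and pericyte markers (5) summed to 712 to 781, 582 to 673, 555 to 609 and 923 to 967 CPM in the same order, with siSlc25a26.PE above all other groups. None of these markers was at 0 in all libraries of a group, and in such bulk RNA fewer cells of a type and less RNA per cell cannot be told apart.

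Promoter sequences of 9 of the 10 genes were at hand, as windows of 300 bases from 250 before to 50 after the gene start in the RefSeq annotation of the rat assembly GRCr8; that of Relb was not. The windows were searched on both strands for the kB consensus, the 10-base element that Rel family dimers bind. Of the 9 windows, 7 (77.8%) held at least 1 match, against 1400 of all 33469 promoter windows (4.18%). No match was found for Rela or Nfkbib. The element GAAANNGAAA, the core of the interferon-stimulated response element, was searched in the same way, free to overlap a kB match, and was in 0 of the 9 windows and in 3.92% of all windows. The stretches around the kB matches are shown 5′ to 3′ on the strand of each gene, with the match in capitals, since these letters are what the windows of the 7 members share. The matches of Nfkbia and Bcl3, and the pair nearest the start in Tnfaip3, are on the opposite strand and are printed here as they read on the gene strand.
Nfkb1 (chr2:226805440-226805469, minus strand): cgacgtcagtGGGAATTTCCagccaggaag
Nfkb2 (chr1:255108314-255108373, plus strand): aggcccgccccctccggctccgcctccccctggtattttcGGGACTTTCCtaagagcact
Nfkbia (chr6:78597073-78597132, minus strand): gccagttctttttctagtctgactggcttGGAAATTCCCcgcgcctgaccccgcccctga
Nfkbie (chr9:22948002-22948061, minus strand): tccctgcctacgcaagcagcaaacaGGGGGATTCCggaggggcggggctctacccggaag
Nfkbiz (chr11:58251661-58251720, plus strand): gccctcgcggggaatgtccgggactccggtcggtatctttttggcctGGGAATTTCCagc
Bcl3 (chr1:88613559-88613618, minus strand): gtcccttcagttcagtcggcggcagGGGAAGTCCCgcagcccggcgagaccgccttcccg
Tnfaip3 (chr1:15543980-15544159, minus strand): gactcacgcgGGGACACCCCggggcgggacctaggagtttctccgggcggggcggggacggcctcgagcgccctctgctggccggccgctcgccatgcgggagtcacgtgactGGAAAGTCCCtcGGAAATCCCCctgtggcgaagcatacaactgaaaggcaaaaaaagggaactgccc

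Nfkb1, Nfkbia and Nfkbiz held the same 10 letters, GGGAATTTCC, on the gene strand in Nfkb1 and Nfkbiz and on the opposite strand in Nfkbia. Nfkb2 and Tnfaip3 shared GGGACTTTCC. Tnfaip3 was the member with the most matches, 3, of which the pair nearest the start lay on the opposite strand and ended 58 and 46 bases before it. In Nfkbiz the match ended 4 bases before the start, in Nfkb2 11, in Nfkbia 22, in Bcl3 29 and in Nfkbie 155 bases before it, and in Nfkb1 it lay from base 4 to base 13 after it. The matches are letters in a reference window, and binding was not measured.

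**Figure D1:**
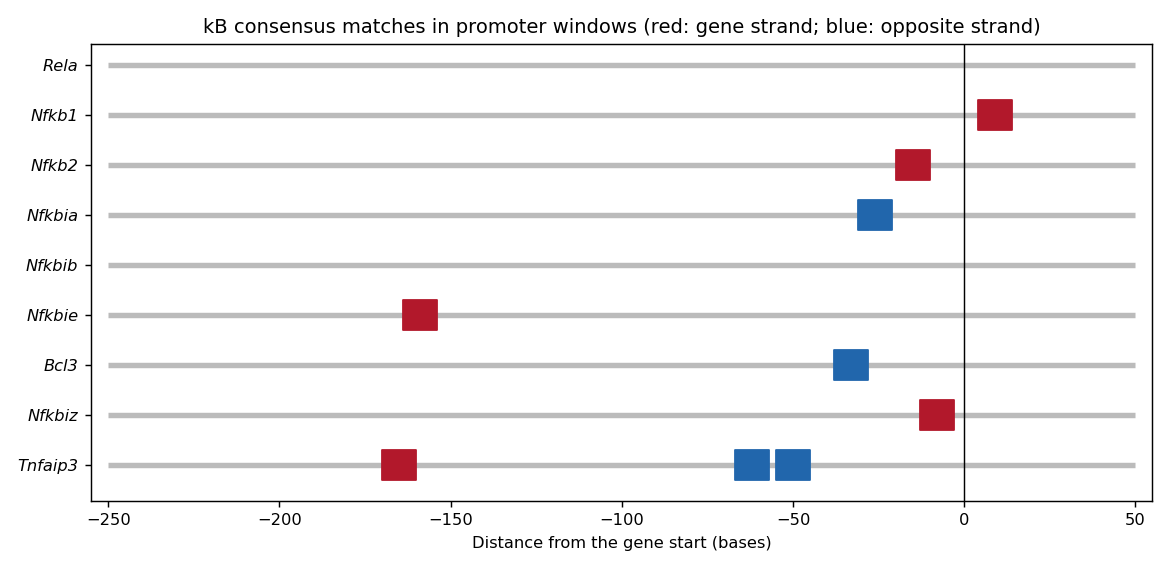
Positions of kB consensus matches in the promoter windows of the 9 members with a window, plotted as distance from the gene start in bases (grey line: the window searched; red: match on the gene strand; blue: match on the opposite strand). Tnfaip3 has 3 matches, Rela and Nfkbib have none, and all other members have 1.

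Compared per length of transcript, in FPKM (fragments scaled to transcript length and library total), Rela was the most abundant of the 10 in siNeg, at 39.7 ± 1.83 FPKM (mean ± SD, n = 3, as for all values in this form). Rela encodes p65, the subunit that carries the main activation domain. Nfkbia, the gene of IkB-alpha, followed at 19.6 ± 0.687 FPKM, beside Nfkb1 (p105, the precursor of p50) at 18.5 ± 1.56 FPKM and Nfkb2 (p100, the precursor of p52) at 18.3 ± 0.576 FPKM, and the range of Nfkb1 overlapped those of Nfkbia and Nfkb2, which did not overlap each other. Nfkbib stood at 15.8 ± 1.39 FPKM and Relb at 13.3 ± 0.970 FPKM. Nfkbie reached 6.86 ± 0.762 FPKM and Bcl3 4.52 ± 0.854 FPKM. Tnfaip3 at 2.27 ± 0.157 FPKM and Nfkbiz at 1.21 ± 0.0950 FPKM were the least abundant, and from Nfkb2 downwards the ranges of neighbours in this order did not overlap. Reads of Relb and Nfkbie were shared out in fractions by the authors' counting in 11 of 12 libraries each, and those of Rela in 4 of 12, so the levels of these genes are less certain than those of the other 7, whose counts were whole numbers.

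The libraries labelled siSlc25a26 had more transcript of nearly all of these genes than siNeg. Without PE, 9 of the 10 rose at an adjusted p-value under 0.05 in edgeR's quasi-likelihood test, where 23.3% of all 13829 tested genes rose, and 5 of them (Tnfaip3, Nfkbie, Nfkbia, Bcl3 and Nfkbiz) rose by more than 1.5-fold, where 8.92% of all genes did. The 5 that passed 1.5-fold are all genes of inhibitors or IkB-like regulators, and the 4 subunit genes rose by less. In 9 members the lowest of the 3 libraries labelled siSlc25a26 lay above the highest of siNeg, as it did in 31.6% of all genes. The median log2 fold change of the 10 was 0.57, against 0.01 over all genes. None of the 10 fell, by edgeR (0 also at an unadjusted p under 0.05), DESeq2 or limma, where 21.7% of all genes fell in edgeR.

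Under PE the label was not checked by Slc25a26. There 8 of the 10 were higher at an adjusted p under 0.05 in siSlc25a26.PE than in siNeg.PE, against 20.1% of 13671 tested genes. Of these 8, 5 (Tnfaip3, Nfkbie, Nfkbiz, Nfkbia and Nfkb1) were higher by more than 1.5-fold, against 7.71% of all genes. The median of the 10 was 0.59, against -0.0028 over all genes. In 9 members the libraries of the groups did not overlap, as in 26.9% of all genes in that direction. No member was lower by edgeR, also at an unadjusted p under 0.05, by DESeq2 or by limma, where 20.1% of all genes were.

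With PE more members fell than rose. In siNeg, 5 of the 10 (Nfkbia, Tnfaip3, Nfkb2, Relb and Rela) fell at an adjusted p under 0.05, against 24.3% of 13719 tested genes, and 1, Nfkbiz, rose, against 25.2%. With the 1.5-fold threshold, Nfkbia and Tnfaip3 fell, against 8.24% of all genes, and Nfkbiz rose, against 12.4%. The median of the 10 was -0.35, against 0.00016 over all genes. In the libraries labelled siSlc25a26, PE was followed by a fall of 7 members, against 26.0% of 13776 tested genes, and a rise of Nfkbiz and Nfkb1, against 26.4%. Past 1.5-fold, Nfkbia, Tnfaip3, Relb and Bcl3 fell, against 10.4% of all genes, and Nfkbiz rose, against 10.1%. The median of the 10 was -0.50 there, against -0.0036 over all genes. Each PE comparison shares a group with the siRNA comparison without PE (siNeg or siSlc25a26) and another with that under PE (siNeg.PE or siSlc25a26.PE). The values of the PE and siRNA comparisons thus stand side by side and are not independent of each other. On the FPKM scale the median of all genes moved to -0.13 in the comparison of PE in siSlc25a26, and 27.4% of the called genes were higher there against 49.2% on the count scale.

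**Figure D2:**
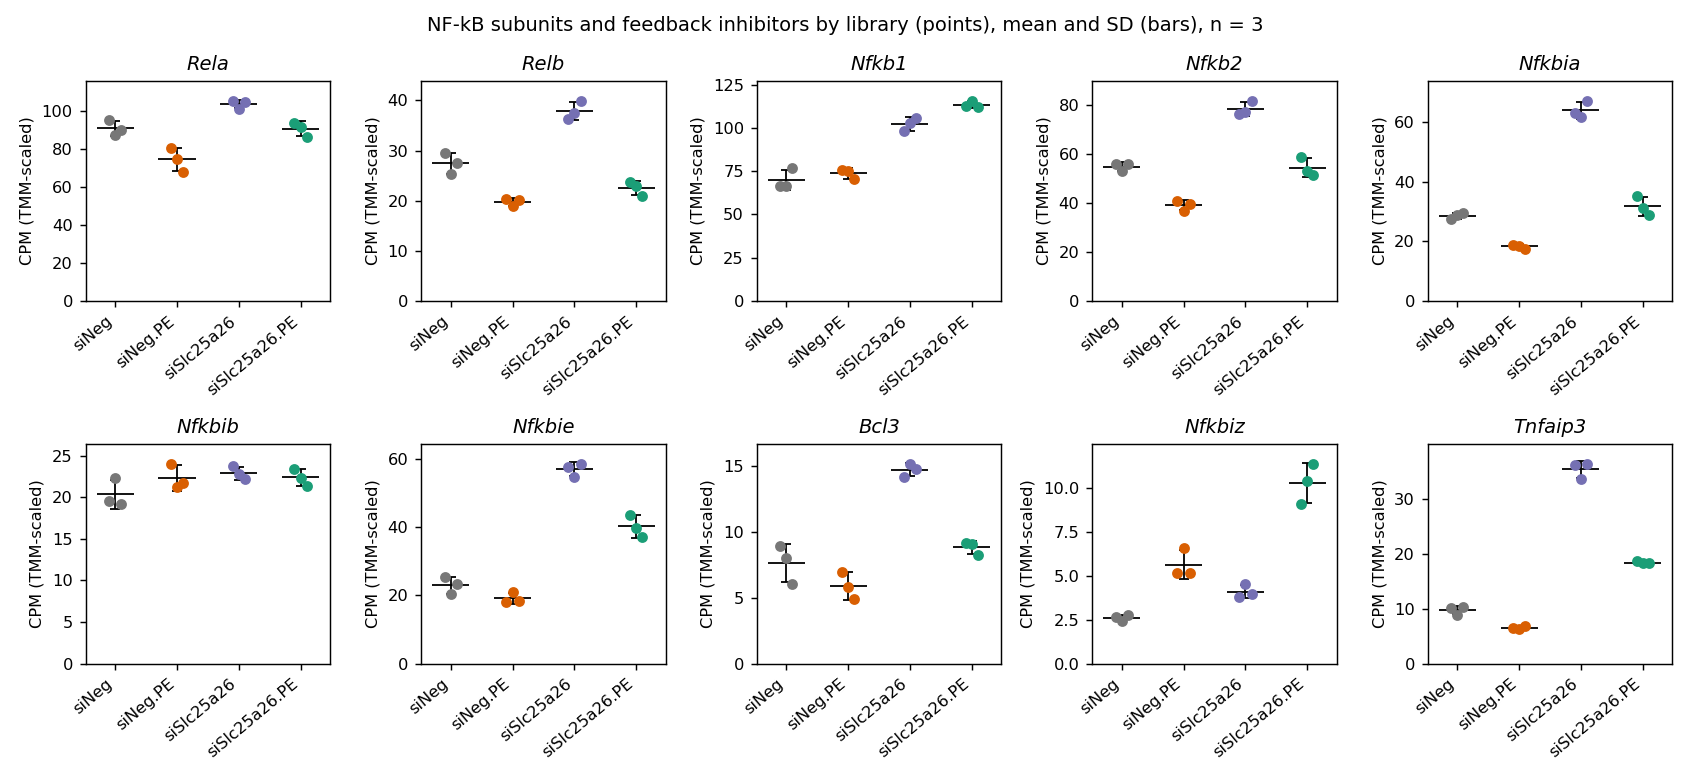
CPM of the 10 members in each of the 12 libraries (points, coloured by group; horizontal line and bar: mean and SD of 3 libraries; vertical axis from 0 in each panel). Tnfaip3, Nfkbie, Nfkbia and Bcl3 are highest in all 3 libraries labelled siSlc25a26, Nfkbiz is highest in siSlc25a26.PE, and Nfkbib is at about the same level in all groups.

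Among the subunits, Rela stood at 95.4, 87.3 and 90.3 CPM in siNeg and at 80.6, 75.1 and 68.1 CPM in siNeg.PE. In siSlc25a26 it stood at 105, 101.1 and 105 CPM, and in siSlc25a26.PE at 94.0, 91.9 and 86.5 CPM. The siNeg.PE libraries were the lowest and the siSlc25a26 libraries the highest, without overlap, while siNeg and siSlc25a26.PE overlapped. No change of Rela reached 1.5-fold. It fell by 0.30 ± 0.0700 (log2, ± SE) with PE in siNeg (edgeR adjusted p = 0.00842), and rose by 0.16 ± 0.0514 with the siRNA without PE (edgeR adjusted p = 0.0285). That call was lost with DESeq2 (adjusted p = 0.0585) and without siNeg replicate 2 or 3 or siSlc25a26 replicate 1 or 3 (edgeR adjusted p = 0.160, 0.0930, 0.0935 and 0.0805). Under PE the siRNA groups differed by 0.27 ± 0.0791 (edgeR adjusted p = 0.0226), a call lost without replicate 2 or 3 of siNeg.PE or replicate 1 or 2 of siSlc25a26.PE (edgeR adjusted p = 0.0747, 0.0656, 0.0510 and 0.0718). With PE in siSlc25a26 it fell by 0.18 ± 0.0508 (edgeR adjusted p = 0.0144, and 0.0522 without siSlc25a26.PE replicate 2).

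Relb encodes the subunit that pairs with p52 in the alternative, slower branch of the pathway. It measured 29.4, 25.4 and 27.5 CPM in siNeg, 20.3, 18.9 and 20.2 CPM in siNeg.PE, 36.4, 37.4 and 39.9 CPM in siSlc25a26 and 23.6, 22.9 and 20.9 CPM in siSlc25a26.PE. No neighbouring groups overlapped in this order of siNeg.PE, siSlc25a26.PE, siNeg and siSlc25a26. PE was followed by a fall to 0.598-fold in siSlc25a26 (log2 fold change -0.74 ± 0.0711, edgeR adjusted p = 3.61e-05), and by a smaller one in siNeg (-0.48 ± 0.0820, edgeR adjusted p = 0.00198). The siRNA was followed by a rise without PE (0.44 ± 0.0746, edgeR adjusted p = 0.00152), whereas its value under PE, 0.18 ± 0.0808, did not pass (edgeR adjusted p = 0.117) although the libraries did not overlap.

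Nfkb2, the partner of Relb in that branch as well as an IkB-like inhibitor in its uncleaved form, followed the same order of groups. Its levels were 55.9, 53.0 and 56.0 CPM in siNeg, 41.0, 36.9 and 39.8 CPM in siNeg.PE, 76.6, 77.3 and 81.8 CPM in siSlc25a26 and 58.7, 53.3 and 51.5 CPM in siSlc25a26.PE. The last group overlapped siNeg, the group with control siRNA and no PE, and the difference between these groups was not tested. The log2 values of its fall with PE were close in siNeg (-0.50 ± 0.0649, edgeR adjusted p = 0.000584) and in siSlc25a26 (-0.52 ± 0.0635, edgeR adjusted p = 0.000169), and the difference between them was -0.04 ± 0.0893 (edgeR adjusted p = 0.811). With the siRNA it rose by 0.49 ± 0.0522 without PE (edgeR adjusted p = 0.000112) and by 0.46 ± 0.0769 under PE (edgeR adjusted p = 0.00156).

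Nfkb1 was the subunit gene that did not fall with PE in either arm. It measured 66.4, 66.7 and 76.9 CPM in siNeg and 75.5, 75.4 and 70.2 CPM in siNeg.PE, which overlap (log2 fold change 0.06 ± 0.0698, edgeR adjusted p = 0.486). In siSlc25a26 it stood at 98.1, 103 and 106 CPM and in siSlc25a26.PE at 113, 116 and 112 CPM, above all siNeg and siNeg.PE libraries. The rise with the siRNA was 0.52 ± 0.0650 without PE (edgeR adjusted p = 0.00028) and 0.61 ± 0.0614 under PE (1.53-fold, edgeR adjusted p = 9.55e-05), the latter under 1.5-fold on log2(FPKM + 1) (0.52) and without siNeg.PE replicate 3 (0.56). The rise of 0.16 ± 0.0498 with PE in siSlc25a26 (edgeR adjusted p = 0.0229) depended on the scale: on log2(FPKM + 1) it was -0.01, which is 0.11 above the median of all genes on that scale, and was not called (limma adjusted p = 0.854). It also missed the threshold with the replicate block (adjusted p = 0.0549) and without siSlc25a26.PE replicate 2 or siSlc25a26 replicate 1 or 2 (edgeR adjusted p = 0.0919, 0.0974 and 0.0679).

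Of the cytoplasmic inhibitors, Nfkbia encodes IkB-alpha, the fast inhibitor that NF-kB induces within its own feedback loop. It stood at 27.4, 28.7 and 29.4 CPM in siNeg and at 18.9, 18.5 and 17.4 CPM with PE (0.636-fold, log2 fold change -0.65 ± 0.0684, edgeR adjusted p = 0.000205). In siSlc25a26 it reached 63.2, 61.5 and 67.0 CPM, 2.20-fold the siNeg level (1.14 ± 0.0600, edgeR adjusted p = 1.07e-06). In siSlc25a26.PE it measured 35.1, 31.2 and 28.9 CPM, which overlaps siNeg. Every siSlc25a26 library was thus above every other library, and every siNeg.PE library below. With PE it fell to 0.500-fold in siSlc25a26 (SE 0.0776 on the log2 scale, edgeR adjusted p = 1.03e-05), and under PE the siRNA groups differed by 0.79 ± 0.0888 (edgeR adjusted p = 0.000198).

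Nfkbie encodes IkB-epsilon, an inhibitor that also returns after activation, later than IkB-alpha. Its levels were 25.4, 20.4 and 23.2 CPM in siNeg, 18.1, 20.9 and 18.4 CPM in siNeg.PE, 57.6, 54.7 and 58.6 CPM in siSlc25a26 and 43.7, 39.8 and 37.2 CPM in siSlc25a26.PE. All libraries of both siRNA groups lay above all siNeg and siNeg.PE libraries, whose ranges overlapped. The siRNA was followed by a 2.43-fold rise without PE (1.28 ± 0.0814, edgeR adjusted p = 3.77e-06) and a 2.09-fold rise under PE (1.06 ± 0.0862, edgeR adjusted p = 2.62e-05). With PE it fell by 0.49 ± 0.0697 in siSlc25a26 (edgeR adjusted p = 0.000394), while the value in siNeg, -0.28 ± 0.103, missed the threshold (edgeR adjusted p = 0.0512) and passed it with a replicate block (adjusted p = 0.0292), with all 12 libraries in the fit (adjusted p = 0.0262), with limma on log2(FPKM + 1) and log2(FPKM + 0.1) (adjusted p = 0.0270 and 0.0240) and without siNeg replicate 2 (edgeR adjusted p = 0.0314).

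Nfkbib, the gene of IkB-beta, is not a typical feedback target, and it passed the edgeR test in no comparison. It measured 19.5, 22.3 and 19.2 CPM in siNeg, 24.0, 21.2 and 21.7 CPM in siNeg.PE, 23.7, 22.8 and 22.2 CPM in siSlc25a26 and 23.4, 22.4 and 21.4 CPM in siSlc25a26.PE. All neighbouring groups overlapped. Its log2 fold changes in the 4 comparisons lay between -0.02 ± 0.0679 (PE in siSlc25a26, edgeR adjusted p = 0.803) and 0.14 ± 0.0856 (siSlc25a26 without PE, edgeR adjusted p = 0.197). With PE in siSlc25a26 it was lower on log2(FPKM + 1) (-0.19, limma adjusted p = 0.02004) and on log2(FPKM + 0.1) (-0.20, limma adjusted p = 0.0193), of which -0.13 and -0.17 were the median of all genes on these scales.

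**Figure D3:**
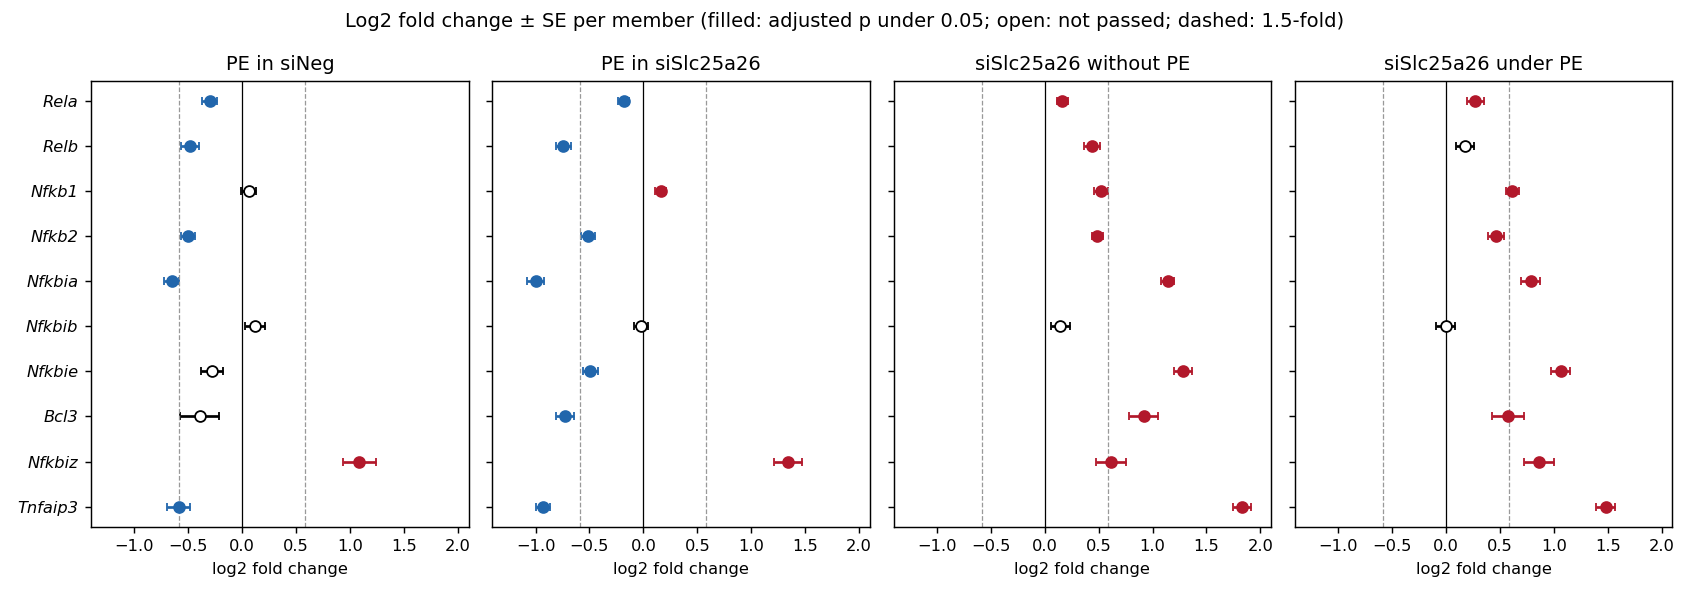
Log2 fold change ± SE (edgeR) of each member in the 4 comparisons (filled: adjusted p under 0.05, red higher and blue lower; open: not passed; dashed lines: 1.5-fold). Tnfaip3 has the largest rise in both siRNA comparisons, at 1.83 and 1.48, and Nfkbiz is the only member above 0.5 in both PE comparisons, at 1.09 and 1.34.

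The nuclear IkB-like genes went apart. Bcl3 encodes a cofactor of p50 and p52 pairs, and it stood at 8.88, 7.97 and 6.05 CPM in siNeg, 6.96, 5.79 and 4.87 CPM in siNeg.PE, 14.2, 15.1 and 14.8 CPM in siSlc25a26 and 9.17, 9.06 and 8.27 CPM in siSlc25a26.PE. The siSlc25a26 libraries were above all others, and siNeg overlapped both PE groups. Its rise with the siRNA was 1.89-fold without PE (0.92 ± 0.137, edgeR adjusted p = 0.000757) and 1.49-fold under PE (0.58 ± 0.146, edgeR adjusted p = 0.0125). The latter was just short of the 1.5-fold threshold and stayed under it in 10 of 15 alternative settings. It passed in the others, among them the fits without replicate 1 of siNeg.PE or replicate 3 of siSlc25a26.PE (0.72 and 0.63). With PE it fell by 0.72 ± 0.0842 in siSlc25a26 (edgeR adjusted p = 0.000122), and its value in siNeg, -0.39 ± 0.180, did not pass (edgeR adjusted p = 0.103), except with the replicate block (adjusted p = 0.0110), with all 12 libraries in the fit and without siNeg replicate 3 (edgeR adjusted p = 0.0272).

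Nfkbiz, the gene of IkB-zeta, a nuclear cofactor needed for a delayed set of NF-kB targets, was the only member that rose with PE in both arms. It also rose with the siRNA with and without PE. It stood at 2.65, 2.44 and 2.77 CPM in siNeg, 5.13, 6.57 and 5.15 CPM in siNeg.PE, 3.78, 4.50 and 3.96 CPM in siSlc25a26 and 9.09, 10.4 and 11.4 CPM in siSlc25a26.PE. The groups did not overlap, in the order siNeg, siSlc25a26, siNeg.PE and siSlc25a26.PE, so that every siNeg.PE library lay above every siSlc25a26 library. PE was followed by a 2.13-fold rise in siNeg (1.09 ± 0.150, edgeR adjusted p = 0.00076) and a 2.53-fold rise in siSlc25a26 (1.34 ± 0.129, edgeR adjusted p = 3.7e-05). The siRNA was followed by a 1.53-fold rise without PE (0.61 ± 0.139, edgeR adjusted p = 0.00692) and a 1.82-fold rise under PE (0.86 ± 0.140, edgeR adjusted p = 0.00142). The first of these stayed past the p-value threshold but came under 1.5-fold on log2(FPKM + 1) (0.33) and log2(FPKM + 0.1) (0.52), and without siNeg replicate 2 or siSlc25a26 replicate 2 (0.56 and 0.54). The direction of its PE response was opposite to that of Nfkbia and Tnfaip3 in both arms.

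Tnfaip3 encodes A20, which removes and adds ubiquitin chains on the adaptors upstream of the kinase complex and so ends the signal. It stood at 10.1, 8.92 and 10.2 CPM in siNeg, 6.53, 6.22 and 6.87 CPM in siNeg.PE, 36.0, 33.6 and 36.3 CPM in siSlc25a26 and 18.6, 18.2 and 18.3 CPM in siSlc25a26.PE. No groups overlapped. Its 3.56-fold rise with the siRNA without PE was the largest change of any member in the 4 comparisons (1.83 ± 0.0821, edgeR adjusted p = 3.29e-07), and under PE the rise was 2.79-fold (1.48 ± 0.0896, edgeR adjusted p = 3.83e-06). With PE it fell to 0.524-fold in siSlc25a26 (-0.93 ± 0.0645, edgeR adjusted p = 5.27e-06). In siNeg it fell to 0.666-fold (-0.59 ± 0.107, edgeR adjusted p = 0.00278), just past the 1.5-fold threshold, and in 10 of 15 alternative settings it was under that threshold, among them DESeq2 (-0.58), limma on log2(FPKM + 1) (-0.40) and the fits without siNeg replicate 1 or 3 or siNeg.PE replicate 1 or 2 (-0.55, -0.56, -0.58 and -0.54).

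Whether the response to PE differed between the siRNA groups was tested as an interaction over all 12 libraries and 14097 genes, of which 5.73% were lower and 5.48% higher at an adjusted p under 0.05. Nfkbia and Tnfaip3 passed on the p-value: the PE effect in siSlc25a26 less that in siNeg was -0.37 ± 0.104 for Nfkbia (edgeR adjusted p = 0.0402) and -0.37 ± 0.107 for Tnfaip3 (edgeR adjusted p = 0.0450). Both calls sat close to the threshold, and their adjusted p ranged from 0.00336 to 0.0940 and from 0.0031 to 0.124 over 20 alternative settings. Leaving out single libraries ended the call in 10 of 12 fits for Nfkbia and in 11 of 12 for Tnfaip3, with the direction kept in all. Relb came next, at -0.28 ± 0.105 (edgeR adjusted p = 0.108). With the 1.5-fold threshold 0 of the 10 were called by edgeR, DESeq2 or limma, where 5.5% of all genes were in either direction by edgeR. The interaction rests on the libraries labelled siSlc25a26.PE, in which the label was not checked by Slc25a26.

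The summed level of the cytoplasmic inhibitors (Nfkbia, Nfkbib and Nfkbie, in FPKM) was set against that of the 4 subunit genes. The ratio was 0.471 ± 0.0282 in siNeg and 0.475 ± 0.00587 in siNeg.PE, whose ranges overlapped: both sums were lower with PE, the subunits at 71.9 ± 2.30 FPKM after 89.8 ± 3.45 FPKM and the inhibitors at 34.1 ± 1.05 FPKM after 42.3 ± 0.863 FPKM. It was 0.674 ± 0.0149 in siSlc25a26, with inhibitors at 80.1 ± 1.70 FPKM and subunits at 119 ± 1.93 FPKM. In siSlc25a26.PE it was 0.525 ± 0.0201, above both siNeg groups in all 3 libraries, while the subunit sum, 89.8 ± 2.41 FPKM, overlapped that of siNeg on this scale. FPKM lack the TMM scaling that the CPM carry, with factors of 1.03 in siNeg and 0.923 to 0.947 in siSlc25a26.PE. The overlap of the sums therefore holds for FPKM only, whereas the ratio within a library does not depend on such scaling.

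The make-up of the inhibitor pool moved too. Nfkbia made up 46.4 ± 1.43% of it in siNeg, 35.5 ± 0.791% in siNeg.PE, 56.2 ± 1.49% in siSlc25a26 and 42.2 ± 1.18% in siSlc25a26.PE. Nfkbib made up 37.3 ± 2.56% in siNeg, 48.7 ± 1.54% in siNeg.PE, 22.7 ± 0.964% in siSlc25a26 and 33.6 ± 0.800% in siSlc25a26.PE, and was the largest of the 3 shares in siNeg.PE. The share of Nfkbie was 16.3 ± 2.12% and 15.8 ± 0.783% in siNeg and siNeg.PE and 21.1 ± 0.624% and 24.2 ± 0.402% in siSlc25a26 and siSlc25a26.PE. These are shares of transcript, and protein was not measured.

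**Figure D4:**
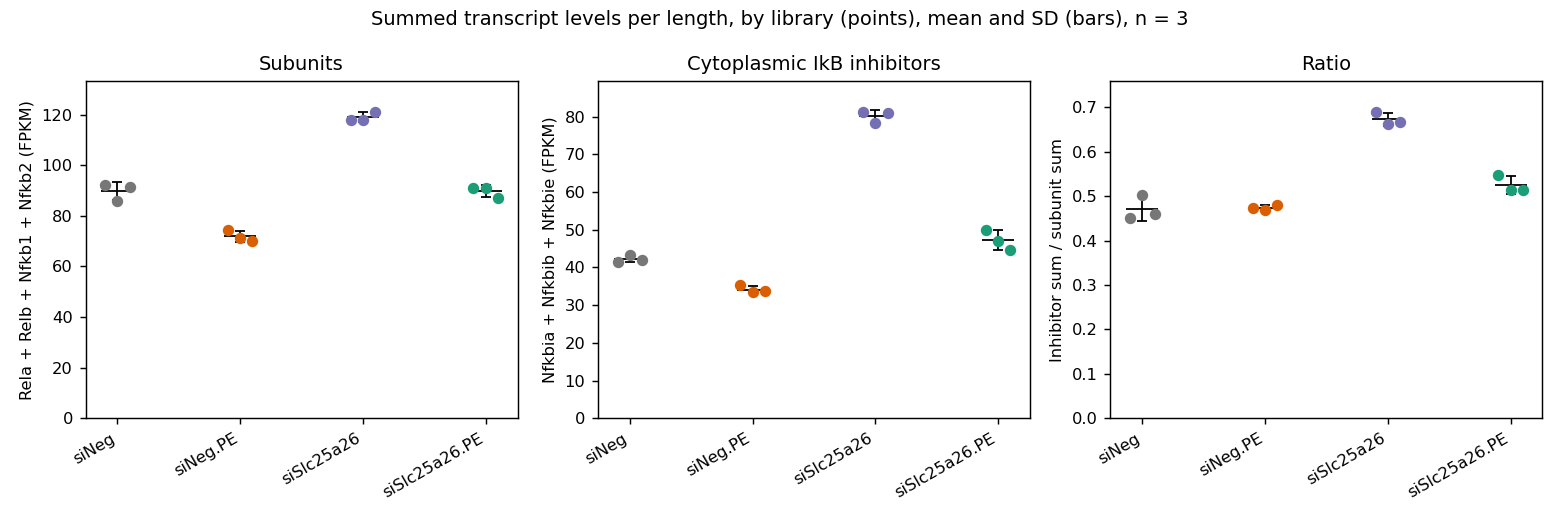
Summed FPKM of the 4 subunit genes, summed FPKM of Nfkbia, Nfkbib and Nfkbie, and their ratio, in each library (points; bars: mean and SD of 3 libraries; axes from 0). The ratio is highest in the 3 siSlc25a26 libraries, from 0.662 to 0.691, and overlaps between siNeg and siNeg.PE.

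The rest of the pathway was followed with lists of receptors, kinases and adaptors, ubiquitin editors and target genes. Of 10 receptors of cytokines and microbial products 9 could be tested, and 9 rose with the siRNA without PE and 8 under PE, where 23.3% and 20.1% of all tested genes rose. The largest rise was that of Tlr3, the receptor of double-stranded RNA, from 4.48 ± 1.12 to 22.2 ± 1.15 CPM without PE (log2 fold change 2.28 ± 0.162, edgeR adjusted p = 8.1e-06). Among 21 kinases and adaptors, 11 rose and 3 fell without PE, and 6 rose and 1 fell under PE, the last share of genes that rose being close to the 20.1% of all genes. Ikbkg, the regulatory subunit of the IkB kinase complex, was the one that fell past 1.5-fold, by 0.67 ± 0.0768 without PE (edgeR adjusted p = 0.000165) and by 0.63 ± 0.0770 under PE (edgeR adjusted p = 0.000296). Tradd, the adaptor of the TNF receptor, rose 2.19-fold without PE (edgeR adjusted p = 8.73e-05).

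Of the 10 tested ubiquitin editors other than Tnfaip3, 5 rose without PE and 3 under PE, against the same 23.3% and 20.1% of all genes, with Rnf31, the catalytic subunit of the linear ubiquitin ligase, at 1.70-fold and 1.56-fold (edgeR adjusted p = 4.21e-05 and 0.000201). Rnf11 was not analysed here. Of 32 NF-kB target genes 25 could be tested, of which 19 rose and 2 fell without PE, and 18 rose and 1 fell under PE, where 21.7% and 20.1% of all genes fell. Cxcl10, a chemokine, went from 11.7 ± 2.56 to 483 ± 30.5 CPM without PE and from 6.78 ± 1.02 to 209 ± 12.3 CPM under PE. Tnf, the cytokine that starts the pathway, went from 0.200 ± 0.136 to 10.1 ± 0.665 CPM without PE. Under PE it went from 0.0791 ± 0.0400 to 3.65 ± 1.16 CPM, the former below the smallest level taken as detected. Tnf passed the low-count filter only in comparisons with a siSlc25a26 group, where it was higher. Its place among the 25 tested targets and those that rose rests on these groups, and the size of its rise is uncertain. Mmp9 fell without PE and under PE, to 0.301-fold and 0.431-fold (edgeR adjusted p = 0.0033 and 0.0113).

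With PE members of each list both rose and fell, where 25.2% of all tested genes rose and 24.3% fell in siNeg and 26.4% rose and 26.0% fell in siSlc25a26. In siNeg, 2 of 9 receptors rose and 2 fell, 4 of 21 kinases and adaptors rose and 8 fell, 4 of 10 ubiquitin editors rose and 3 fell, and 6 of 24 targets rose and 9 fell. In siSlc25a26, 2 of 9 receptors rose and 5 fell, 3 of 21 kinases and adaptors rose and 6 fell, and 4 of 10 ubiquitin editors rose and 4 fell. Of 25 targets there, 4 rose and 11 fell, among them Vcam1, an adhesion molecule, from 65.9 ± 4.35 to 26.0 ± 2.14 CPM. Lcn2, a secreted iron-binding protein of the innate response, rose with PE as Nfkbiz did, from 0.430 ± 0.120 to 1.01 ± 0.377 CPM in siNeg (edgeR adjusted p = 0.0257) and from 1.31 ± 0.126 to 3.60 ± 0.821 CPM in siSlc25a26 (edgeR adjusted p = 0.000525).

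**Figure D5:**
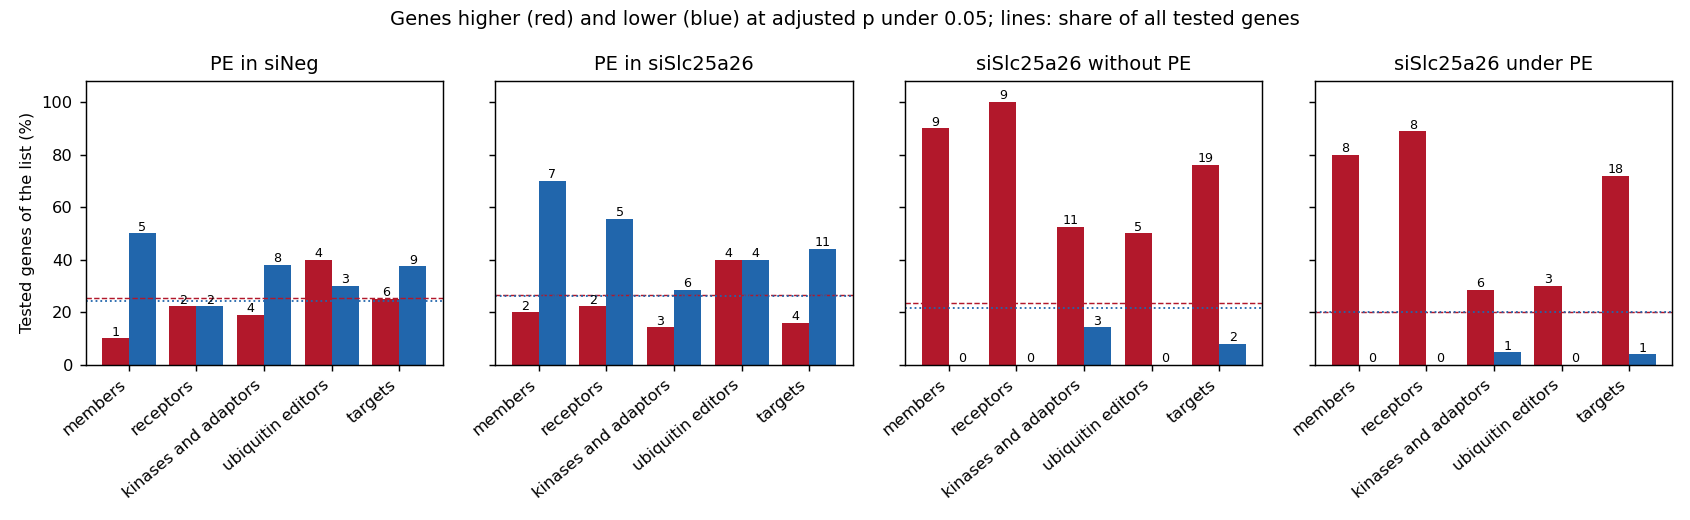
Percent of the tested genes of each list that were higher (red) or lower (blue) at an edgeR adjusted p under 0.05 in the 4 comparisons, with the number of genes above each bar (dashed and dotted lines: share of all tested genes higher and lower). Without PE, 9 of 10 members, 9 of 9 receptors and 19 of 25 targets are higher in siSlc25a26, against 23.3% of all genes.

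Genes of the interferon response moved with the members. The 12 listed genes, among them Mx1, Ifit3 and Irf7, had summed levels of 299 to 344, 217 to 238, 8728 to 9433 and 5218 to 5791 CPM in siNeg, siNeg.PE, siSlc25a26 and siSlc25a26.PE, and all 12 rose with the siRNA with and without PE, at a median log2 fold change of 6.35 without PE and 6.27 under PE. This is the order of groups seen for Nfkbia, Nfkbie, Tnfaip3 and Bcl3, and its part in the changes of the members was not tested. The summed macrophage and leukocyte markers and the summed fibroblast markers were lower in both siRNA groups than in their controls. Of the 8 macrophage and leukocyte markers tested without PE, 5 fell at an edgeR adjusted p under 0.05. Of the 8 tested under PE, Lyz2 fell, C1qc rose and the other 6 did not pass, with a median log2 fold change of 0.10. C1qc was low, at 0.224 ± 0.116 CPM in siNeg.PE and 0.692 ± 0.223 CPM in siSlc25a26.PE. It passed the low-count filter only in comparisons with siSlc25a26.PE, the group where it was higher. Of the 5 smooth muscle and pericyte markers, 4 fell without PE, and under PE 3 rose and 2 fell. Of the 10 fibroblast markers, 8 fell and 1 rose without PE, and 9 fell and 1 rose under PE. Among all tested genes, 23.3% rose and 21.7% fell with the siRNA without PE, and 20.1% rose and 20.1% fell under PE. The part of these other cell types in the changes of the members was not tested.

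Genes outside the 10 members were also split by kB match. Among other tested genes with a promoter window, 14.4% of the 570 with a match and 8.28% of the 10185 without rose past both thresholds with the siRNA without PE. Under PE the shares were 12.5% and 6.7%. With PE, 12.1% of those with a match and 7.59% of those without fell in siNeg, and 15.2% and 9.85% fell in siSlc25a26. In the opposite directions the shares with and without a match were 6.67% and 6.59% lower with the siRNA without PE, 9.27% and 7.53% lower with it under PE, 12.8% and 12.2% higher with PE in siNeg and 11.4% and 9.59% higher with PE in siSlc25a26. Of the 7 members with a match, 5 rose past both thresholds with the siRNA without PE, and Rela and Nfkbib, without one, did not. The members were picked for their role in the pathway and with earlier results known, so these counts cannot test the match. The part of the match in the changes was not tested.

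Across the 12 libraries Rela, Relb, Nfkb2, Nfkbia, Nfkbie, Bcl3 and Tnfaip3 varied together, with Pearson correlations from 0.715 to 0.984 between any pair in log2 CPM. Among them Nfkb2 and Nfkbia had a correlation of 0.982, Nfkbie and Tnfaip3 of 0.984, Nfkbia and Tnfaip3 of 0.954 and Nfkb2 and Relb of 0.942. Nfkbib reached at most 0.420, with Nfkb1, Nfkbiz ran from -0.50 with Relb to 0.673 with Nfkb1, and Nfkb1 had 0.268 with Relb. These values describe 12 libraries in 4 groups, so they mostly carry the group differences given above. Of 14097 genes, the 5 most like Nfkbia were Gnai2 (0.997), Tgfbi, Csf1, Zfp263 and Nub1 (0.990). Those most like Tnfaip3 were Cx3cl1 (0.996), Slc20a2, Faxdc2, Vav2 and Phf12 (0.992), and those most like Relb were Wbp1l (0.987), Zfp512b, Zfp467, Gjd3 and Ppil2 (0.982).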

How the data were processed

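RNA-seq was done on 12 NRVM libraries, grouped by their labels. The authors deposited expected counts per gene, of which 20.8% to 21.9% per library were not whole, and these were rounded here. The authors also deposited FPKM values, scaled by transcript length and library total. The submitters' processing notes name HISAT, Bowtie2 and Rnor_6.0, and the counting program, annotation and strandedness are not given in the sources used here. PE times follow the labels, since the study's methods give other times. The design assumed plain counts, and expected counts took their place. Differences were tested with edgeR 4.0.16 in R 4.3.3 (TMM, filterByExpr, quasi-likelihood F-test, Benjamini-Hochberg adjustment over all tested genes), on the 6 libraries compared or, for the interaction, all 12. Genes were called past 1.5-fold at an adjusted p under 0.05. SEs were taken from the F statistic, and CPM were TMM-scaled. All members were named, and from other lists genes among the 2 largest called changes per direction. Alternatives were DESeq2 1.42.0, limma 3.58.1 (voom, and log2(FPKM + 1) or log2(FPKM + 0.1)), other size factors, filters and fits, and leaving out each library. On simulated counts 196 of 200 genes changed 2-fold were called for PE in siNeg among 13709 genes, and 131 for the interaction. Replicates of a group differed by more than sampling noise. RefSeq identifiers matched for 16962 of 18469 genes. The members and lists were chosen with earlier results of these data known. The paper names this series as its RNA-seq data but describes an siRNA against another gene, and the groups here follow the labels.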

Additional observations from a re-analysis of the deposited data

Results flagged for a closer look

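For Nfkbia and Tnfaip3 the response to PE differed between the siRNA groups by edgeR's interaction test, close to the threshold (adjusted p = 0.0402 and 0.0450). The PE effect in siSlc25a26 less that in siNeg was -0.37 on the log2 scale for Nfkbia, which went from 28.5 ± 0.993 to 18.3 ± 0.749 CPM in siNeg and from 63.9 ± 2.82 to 31.7 ± 3.11 CPM in siSlc25a26 (mean ± SD, n = 3). For Tnfaip3 it was -0.37, with levels of 9.74 ± 0.710 and 6.54 ± 0.323 CPM in siNeg and 35.3 ± 1.52 and 18.4 ± 0.195 CPM in siSlc25a26. Leaving out single libraries ended the call in 10 of 12 fits for Nfkbia and in 11 of 12 for Tnfaip3. DESeq2 and limma-voom called Nfkbia (adjusted p = 0.0369 and 0.0429) and did not call Tnfaip3 (adjusted p = 0.0966 and 0.0597). The test rests on the libraries labelled siSlc25a26.PE, in which Slc25a26 was not lower than in siNeg.PE.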

How the results depend on the processing

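Without the 1.5-fold threshold the members called numbered 6 for PE in siNeg (3 with it), 9 for siSlc25a26 without PE (5), 8 for siSlc25a26 under PE (5), 9 for PE in siSlc25a26 (5) and 2 for the interaction (0). Leaving out each library in turn gave 2 to 3, 4 to 5, 4 to 6, 5 and 0 members. Over all alternatives, single values were judged by direction and by adjusted p under 0.05 alone, without the 1.5-fold threshold. On that rule 732 kept direction and side of the p-value threshold, 42 no longer passed it, 12 newly passed it and 14 changed sign. Tnfaip3 with PE in siNeg thus counts as kept throughout, though it was under 1.5-fold in 10 of 15 settings. The sign changed for Nfkbib with siSlc25a26 under PE (0.00091 with DESeq2, 0.00087 with DESeq2 size factors, 0.0062 with all 12 libraries, and -0.046 to 0.060 over the fits without single libraries) and for PE in siSlc25a26 (-0.053 to 0.0062 over such fits). On log2(FPKM + 1) and log2(FPKM + 0.1) it changed for Nfkb1 with PE in siSlc25a26 (-0.011 and -0.012), and in the interaction for Nfkb1 (-0.033 and -0.035) and Rela (-0.014 and -0.013). On these scales the median of all genes was -0.13 and -0.17 for PE in siSlc25a26 and -0.11 and -0.14 for the interaction. The cause of the other changes was not tested. The interaction calls of Nfkbia and Tnfaip3 were lost with DESeq2 size factors (adjusted p = 0.0514 and 0.0627) and without a low-count filter (0.0528 and 0.0765). A replicate block gave 3, 5, 6, 5 and 0 members. Whether the replicate numbers pair these samples is not known. Same-numbered libraries had correlations of deviations from -0.10 to 0.28, and not every sample correlated best with its own number. Deviations of 3 libraries from their own mean sum to 0, so these correlations cannot settle the pairing. Depth did not limit the members, which all lay far above 3 counts.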
